A study of Mus musculus with 8 samples.

Results

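The hair genes described here are a list of 34 mouse genes: keratins of the inner root sheath and companion layer, keratins of the hair shaft, keratin-associated proteins, 3 other shaft proteins and 4 transcription factors. Each was read through the probe that the platform annotation gives exactly 1 gene symbol, and where a gene had several such probes the brightest on average was used. A value was found for 33 of the 34, out of 22180 genes so measured, and Krt85 is not analysed here. The list was chosen by name after hair keratins had been seen to be high in the array values of single tumours of this series, so the levels below are a description and carry no test.

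The study profiled total RNA of 8 primary mammary tumours from untreated FVB mice on Affymetrix whole-transcript arrays, 1 array per tumour. NeuNT, an activated form of the receptor tyrosine kinase Neu (ErbB2), was carried by both groups: 4 tumours were NeuNT alone and 4 were NeuNT/H1074R, which added a mutant p110α, the catalytic subunit of phosphoinositide 3-kinase. The labels spell the mutation H1074R, and that spelling is kept here. They do not give the promoters that drive the transgenes, the ages, or whether the tumours came from separate mice. The tumours of a genotype may therefore not be independent, while the SDs, SEs and p-values below treat them as independent. The spread between tumours may also in part be technical. The tumours are numbered 1 to 4 within each genotype, and the numbers do not pair tumours across genotypes. Luminal epithelial markers were measured in every tumour, with list means between 8.79 and 10.05 on the log2 scale (9 genes). Array medians lay between 4.81 and 4.87 and the correlations between arrays over all probes between 0.956 and 0.984. All levels are log2 array values, and since 1 probe's level cannot be set against another's, each gene is compared only between tumours. In a whole tumour, a change in the number of cells of a type and a change in RNA per cell cannot be told apart.

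A hair is built from concentric layers of keratinocytes. The inner root sheath, which moulds the growing hair, uses its own keratins together with trichohyalin, and the companion layer beside it is marked by Krt75. The shaft inside it is made of hair keratins, cysteine-rich type I and type II proteins that pair into filaments, embedded in a matrix of keratin-associated proteins that are cross-linked to them by disulphide bonds. Most type I keratin genes, with many keratin-associated protein genes between them, lie in a cluster on mouse chromosome 11, and the type II keratin genes lie on chromosome 15. The mammary gland, like the hair follicle, develops as an appendage of the skin.

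Promoters are shown for the genes with the widest range between tumours in the inner root sheath, shaft keratin and keratin-associated groups that the RefSeq table holds. Each sequence is the 150 bases before the annotated start on the gene's own strand, 5′ to 3′ (RefSeq, GRCm38.p6), with TATAAA, the TATA box, and CTTTG, the core recognised by Lef1, in capitals on either strand (CTTTG reads CAAAG on the other).
Tchh, chr3:93442180-93442329, plus strand: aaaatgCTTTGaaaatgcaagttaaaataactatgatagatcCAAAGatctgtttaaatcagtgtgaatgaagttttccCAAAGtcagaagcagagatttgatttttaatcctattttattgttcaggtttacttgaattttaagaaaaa
Krt71, chr15:101743098-101743247, minus strand: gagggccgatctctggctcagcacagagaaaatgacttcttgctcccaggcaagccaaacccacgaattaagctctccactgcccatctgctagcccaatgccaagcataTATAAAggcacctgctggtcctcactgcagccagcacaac
Krt31, chr11:100050552-100050701, minus strand: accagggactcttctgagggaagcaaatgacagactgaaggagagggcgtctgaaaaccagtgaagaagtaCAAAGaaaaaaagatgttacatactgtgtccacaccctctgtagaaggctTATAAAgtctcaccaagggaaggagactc
Krt34, chr11:100041555-100041704, minus strand: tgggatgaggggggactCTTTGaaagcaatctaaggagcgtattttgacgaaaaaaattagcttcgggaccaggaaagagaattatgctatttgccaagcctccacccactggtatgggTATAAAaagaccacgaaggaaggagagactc
Krtap4-9, chr11:99785050-99785199, plus strand: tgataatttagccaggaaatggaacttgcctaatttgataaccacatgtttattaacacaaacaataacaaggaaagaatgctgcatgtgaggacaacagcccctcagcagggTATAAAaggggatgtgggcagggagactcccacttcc
Krtap4-8, chr11:99780644-99780793, minus strand: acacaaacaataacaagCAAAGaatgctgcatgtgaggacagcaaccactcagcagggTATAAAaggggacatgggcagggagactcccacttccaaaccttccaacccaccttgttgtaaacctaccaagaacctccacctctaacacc
TATAAA on the gene's strand began 40 bases before the start in Krt71, 29 in Krt31, 31 in Krt34, 37 in Krtap4-9 and 92 in Krtap4-8, and these letters were not in the Tchh window. The table held 25 of the 33 measured genes. Within 250 bases before to 50 after the start, 18 of the 25 (72%) held TATAAA on either strand, against 14.2% of 27025 promoters of the same length. By group these were 7 of 9 inner root sheath genes, 5 of 6 shaft keratins, 6 of 6 keratin-associated genes, 0 of 2 other shaft proteins and 0 of 2 transcription factors. On the gene's strand and between 50 and 11 bases before the start the shares were 56% and 2.64%. CTTTG was in 17 of the 25 (68%) and in 54% of all promoters. The windows of Krtap4-8 and Krtap4-9 were identical at 213 of 247 aligned positions (86.2%), and many of these genes have near-identical copies. Their probes' sequences are not analysed here, so signal shared between copies cannot be told apart from the gene's own.

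1 tumour stood apart. NeuNT replicate 4 had the highest value of the 8 tumours for 31 of the 33 genes, where it was highest for 12.8% of all genes. The exceptions were Krtap4-9, highest in NeuNT replicate 1, and Msx2, highest in NeuNT replicate 2. The excess of a tumour is defined as its log2 value minus the median of the other 7 tumours. It reached 1 or more in NeuNT replicate 4 for 27 of 33 genes (3.03% of all genes), 2 or more for 25 and 4 or more for 11. The shares of all genes at 2 and at 4 were not taken. The median excess was 3.07, an 8.41-fold higher signal. For 10 of the 33 genes, 5 of them sheath and 5 keratin-associated genes, the median of the other 7 tumours lay at or under 4.06, the line of the dimmest 25% of genes, so their folds rest on dim values. With values under that line raised to it, an alternative chosen after seeing the data, the median excess was 4.99 (31.9-fold) for the sheath genes, 2.35 (5.10-fold) for the shaft keratins and 4.15 (17.7-fold) for the keratin-associated genes. The mean over the 33 genes was 7.82 in that tumour, and in the rest it ran from 4.53 to 5.36. NeuNT/H1074R replicate 1 came second for 17 of the 31 genes, where it was second for 13.4% of all genes. NeuNT/H1074R replicate 3 came second for 6 (13% of all genes) and NeuNT/H1074R replicate 4 for 4 (14.6%). NeuNT replicate 2 came second for 3 (9.51%) and NeuNT/H1074R replicate 2 for 1 (13.8%).

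**Figure D1:**
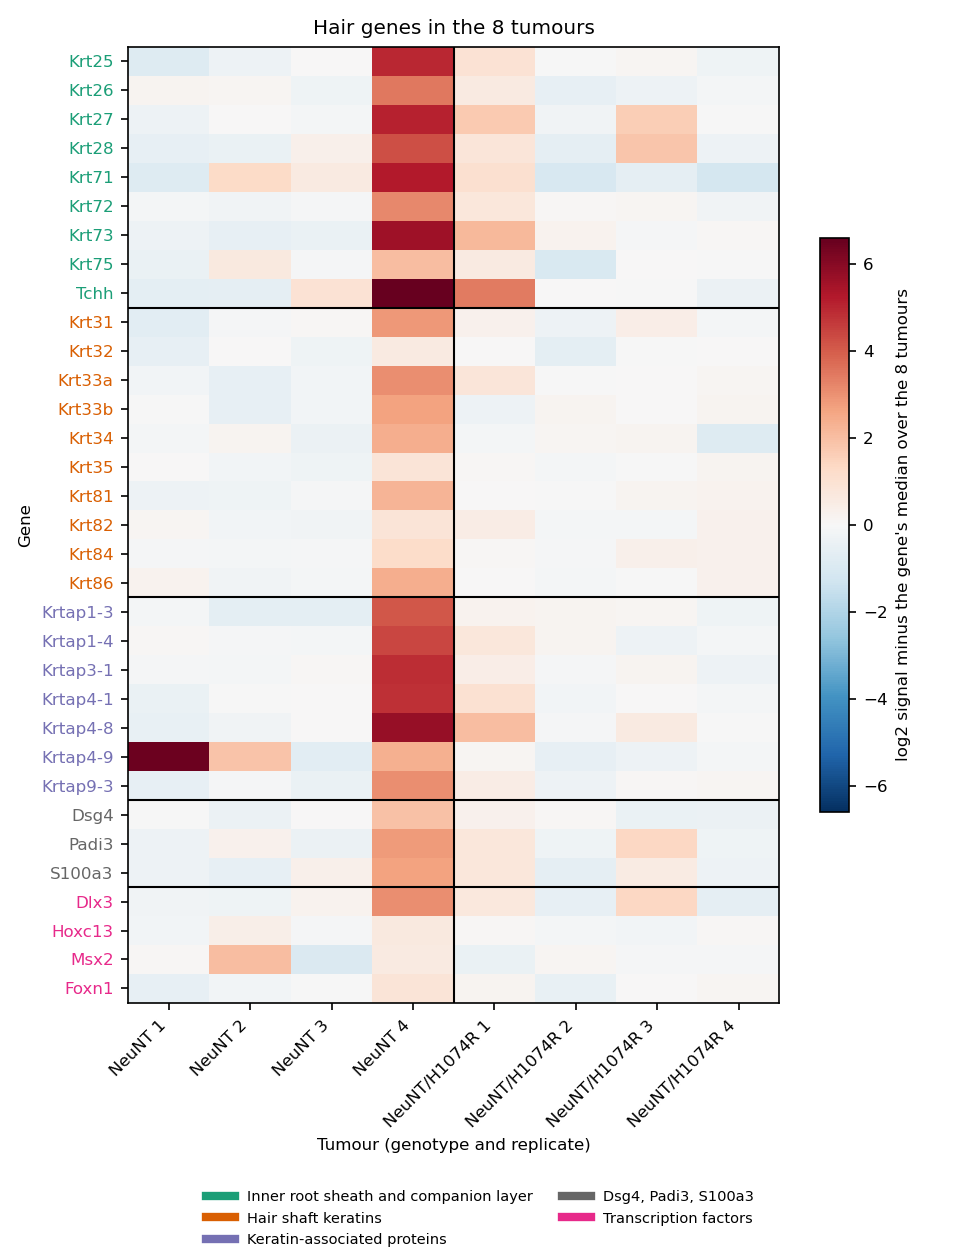
Each row is 1 of the 33 genes and each column 1 tumour; colour gives the log2 signal minus that gene's median over the 8 tumours, and lines separate the gene groups and the genotypes. The column of NeuNT replicate 4 is the darkest red for 31 of 33 rows, and the Krtap4-9 row is darkest in NeuNT replicate 1.

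All 9 genes of the inner root sheath and companion layer were highest in NeuNT replicate 4, each by an excess of 1 or more, with a median of 4.99 (31.9-fold) and a range of 2.06 to 6.78. Trichohyalin (Tchh), which hardens the inner root sheath once it is deiminated and cross-linked, had the widest range of the group. The Tchh values were 3.35, 3.40, 4.94 and 10.76 in the NeuNT tumours and 7.43, 4.03, 3.98 and 3.62 in the NeuNT/H1074R tumours. NeuNT replicate 4 exceeded the median of the rest 110-fold (104-fold with dim values raised to 4.06), and NeuNT/H1074R replicate 1 stood above the remaining 6. Krt73, a type II keratin of the sheath cuticle, had the same order at the top. For Krt73 the NeuNT tumours gave 4.91, 4.70, 4.84 and 10.86 and the NeuNT/H1074R tumours 7.42, 5.49, 5.17 and 5.35. The value in NeuNT replicate 4 was 51.7-fold above the median of the others, and NeuNT/H1074R replicate 1 again came second. Krt71 is the main type II keratin of the sheath, and its mutations give curly or sparse coats. Krt71 read 3.64, 5.77, 5.10 and 9.76 in NeuNT replicates 1 to 4 and 5.56, 3.45, 3.92 and 3.34 in NeuNT/H1074R replicates 1 to 4. The excess in NeuNT replicate 4 was 57.1-fold (51.9-fold with dim values raised), and here NeuNT replicate 2 was next. Krt25 is a type I keratin that pairs with Krt71. The Krt25 values were 3.28, 3.81, 4.16 and 9.13 in the NeuNT tumours and 5.08, 4.13, 4.26 and 3.87 in the NeuNT/H1074R tumours. The excess was 31.9-fold in NeuNT replicate 4, and the other 7 tumours lay within 3.28 to 5.08.

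The remaining sheath genes repeated this layout at other sizes. Krt27 stood at 9.10 in NeuNT replicate 4 and 3.70 to 5.75 elsewhere, and Krt28 at 8.92 against 4.09 to 6.49. For these neighbouring type I sheath keratins NeuNT/H1074R replicate 3 was also raised, at 5.61 for Krt27 and 6.49 for Krt28. Krt72, a type II keratin of the sheath cuticle, read 7.23 against 3.79 to 4.81, and Krt26 read 6.92 against 2.87 to 4.03. Krt75 of the companion layer had the smallest excess of the group, 6.89 against 3.87 to 5.49, or 4.18-fold. The mean of the 9 genes was 8.84 in NeuNT replicate 4, 5.67 in NeuNT/H1074R replicate 1 and 3.88 to 4.62 in the remaining 6. In NeuNT/H1074R replicate 1 the excess reached 1 or more for 5 of these 9 genes, against 0 of 10 shaft keratins and 1.61% of all genes. It also reached 1 or more there for 2 of 3 other shaft proteins and 1 of 7 keratin-associated genes.

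The 10 shaft keratins were also all highest in NeuNT replicate 4, but with a smaller median excess of 2.35 (5.10-fold) and a range of 0.61 to 3.13. Krt33a, a type I cortex keratin, had the widest range. For Krt33a the NeuNT tumours gave 4.97, 4.64, 5.0 and 8.25 and the NeuNT/H1074R tumours 5.98, 5.13, 5.22 and 5.31. NeuNT replicate 4 was 8.74-fold above the median of the others, which lay between 4.64 and 5.98. Its neighbour Krt33b is a close copy of it. Krt33b read 4.72, 4.16, 4.54 and 7.39 in NeuNT replicates 1 to 4 and 4.39, 4.92, 4.73 and 4.92 in NeuNT/H1074R replicates 1 to 4. The highest tumour was the same, while NeuNT/H1074R replicate 1, second for Krt33a, was among the lowest for Krt33b. Krt31, another type I cortex keratin, was also highest there. The Krt31 values were 3.65, 4.26, 4.39 and 7.20 in the NeuNT tumours and 4.61, 3.98, 4.75 and 4.19 in the NeuNT/H1074R tumours. Here the excess was 7.69-fold, and no other tumour passed 4.75. Krt34 completes the type I cortex keratins with the wider ranges. For Krt34 the NeuNT tumours gave 5.57, 5.85, 5.33 and 8.11 and the NeuNT/H1074R tumours 5.57, 5.82, 5.90 and 4.84. The top value was again that of NeuNT replicate 4, with the other 7 between 4.84 and 5.90.

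Among the type II shaft keratins, Krt81 read 8.57 in NeuNT replicate 4 and 6.01 to 6.57 elsewhere, and Krt86 read 7.70 against 5.05 to 5.56. Krt81 and Krt86 are close copies of each other and both are cortex keratins. Krt84, known also from the tongue, read 6.21 against 4.85 to 5.31. The smallest excesses of the 10 were 0.61 for Krt32 and 0.96 for Krt82, both cuticle keratins, and 0.85 for Krt35, made early in the matrix. S100a3, a cuticle protein outside this group, had a larger excess of 3.02. The mean of the 10 shaft keratins was 7.18 in NeuNT replicate 4 and 5.06 to 5.39 in the other 7. Its lead over the next tumour was 1.79 (3.46-fold), where the lead for the sheath genes was 3.17 (9.02-fold). The sheath mean in the other 7 tumours was 3.88 to 5.67, so the 2 leads rest on different probes with unlike baselines. The part of probe background in their difference was not tested.

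**Figure D2:**
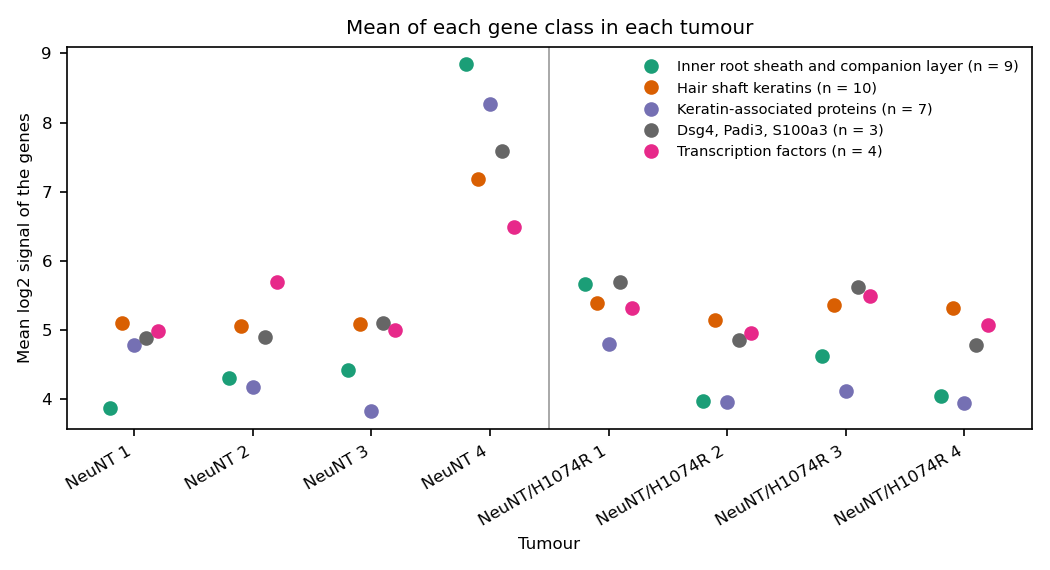
Points give the mean log2 signal over the genes of each group in each of the 8 tumours, coloured by group, with n the number of genes. NeuNT replicate 4 is highest in all 5 groups, with sheath genes at 8.84 and shaft keratins at 7.18, and the lead is smallest for the transcription factors. The groups rest on different probes, so levels are to be compared between tumours and not between groups.

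The 7 keratin-associated genes had an excess of 1 or more in NeuNT replicate 4 without exception, with a median of 4.47 (22.2-fold), and 6 of them were highest there. Krtap4-8 encodes an ultra-high-sulphur matrix protein. Krtap4-8 read 2.90, 3.17, 3.39 and 9.11 in NeuNT replicates 1 to 4 and 5.43, 3.30, 3.95 and 3.37 in NeuNT/H1074R replicates 1 to 4. NeuNT replicate 4 was 53.4-fold above the median of the others (33.0-fold with dim values raised), and NeuNT/H1074R replicate 1 came second. Krtap4-1 is of the same family. The Krtap4-1 values were 3.0, 3.42, 3.46 and 8.27 in the NeuNT tumours and 4.41, 3.27, 3.44 and 3.28 in the NeuNT/H1074R tumours. The order at the top was the same, with an excess of 28.9-fold (18.5-fold with dim values raised). Krtap3-1 encodes a high-sulphur matrix protein. For Krtap3-1 the NeuNT tumours gave 3.75, 3.71, 3.89 and 8.67 and the NeuNT/H1074R tumours 4.27, 3.74, 3.99 and 3.48. The excess was 30.4-fold (24.4-fold with dim values raised), and the other 7 tumours stayed within 3.48 to 4.27. Krtap1-3 and Krtap1-4 read 8.21 and 8.0 in NeuNT replicate 4 and at most 4.33 and 4.32 elsewhere, and Krtap9-3 read 7.23 against 3.65 to 4.65.

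Krtap4-9 departed from this layout. Krtap4-9 read 12.56, 7.94, 5.37 and 8.42 in NeuNT replicates 1 to 4 and 6.21, 5.55, 5.72 and 5.94 in NeuNT/H1074R replicates 1 to 4. NeuNT replicate 1 was highest, 4.14 (17.6-fold) above NeuNT replicate 4 and 6.62 above the median of the other 7. NeuNT replicate 2 had an excess of 2.0, and NeuNT replicate 3 was the lowest tumour. For the other 32 genes NeuNT replicate 1 had an excess of 1 or more in 0 cases, against 1.29% of all genes.

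Outside the list, 44 further keratin-associated genes were measured, and 26 of them were highest in NeuNT replicate 4 (12.8% of all genes). The excess there reached 1 or more for 19 of the 44 (3.03% of all genes), 18 of them among the 26. NeuNT replicate 1 was highest for 7 of the 44 (12.7% of all genes) and had an excess of 1 or more for 4 (1.29% of all genes), 3 of them among the 7. The 44 were all the other measured genes of this name. The family was taken up after hair keratins had been seen to be high in single tumours, and some of the 44 lie among the listed genes on chromosome 11. Their counts are therefore not independent of the list. Krtap13-1 read 9.16 in NeuNT replicate 4 and 3.66 to 4.54 in the others. Krtap16-1 read 8.07 in NeuNT replicate 1 and 4.01 to 4.87 in the others, and Krtap17-1 read 9.57 against 5.65 to 6.63.

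Krtap4-9, Krtap16-1 and Krtap17-1 lie in 1 stretch. In RefSeq order along the type I cluster of chromosome 11, stretches were set off after their values had been seen, so they carry no test. From Krtap4-9 to Krtap17-1 there were 16 measured genes. All 16 stood above the median of the other tumours in NeuNT replicate 1, by 0.24 to 6.62. Of these, 9 were at 1 or more (1.29% of all genes) and 10 were highest in that tumour (12.7% of all genes). Of the 13 genes from Krtap3-1 to Krtap4-8 on one side and the 7 from Krt33a to Krt36 on the other, NeuNT replicate 1 had an excess of 1 or more in 0. NeuNT replicate 4 had such an excess in 5 of 13 genes from Smarce1 to Krt40 (3.03% of all genes). From Krtap3-1 to Krtap4-8 it was 13 of 13, with a median of 4.23. There were 7 of 16 from Krtap4-9 to Krtap17-1 and 5 of 7 from Krt33a to Krt36. From Krtap4-9 to Krtap17-1, 5 genes had an excess of 1 or more in both tumours: Krtap4-9, Krtap4-13, Krtap4-16, Gm11568 and Gm11559. Krtap4-13 stood at 9.19 in NeuNT replicate 1, 9.13 in NeuNT replicate 4 and 5.96 to 7.04 elsewhere. From Smarce1 to Krt40, NeuNT/H1074R replicate 3 also had an excess of 1 or more in 5 of 13 genes (1.62% of all genes). Krt27 and Krt28 were among them. NeuNT/H1074R replicate 1 had such an excess in 3 of 13 (1.61% of all genes). In NeuNT/H1074R replicate 3, Krt23 read 11.31 against 6.14 to 7.77 in the others. Smarce1, a chromatin remodelling subunit that is no keratin, read 9.35 in that tumour against 6.39 to 6.84.

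**Figure D3:**
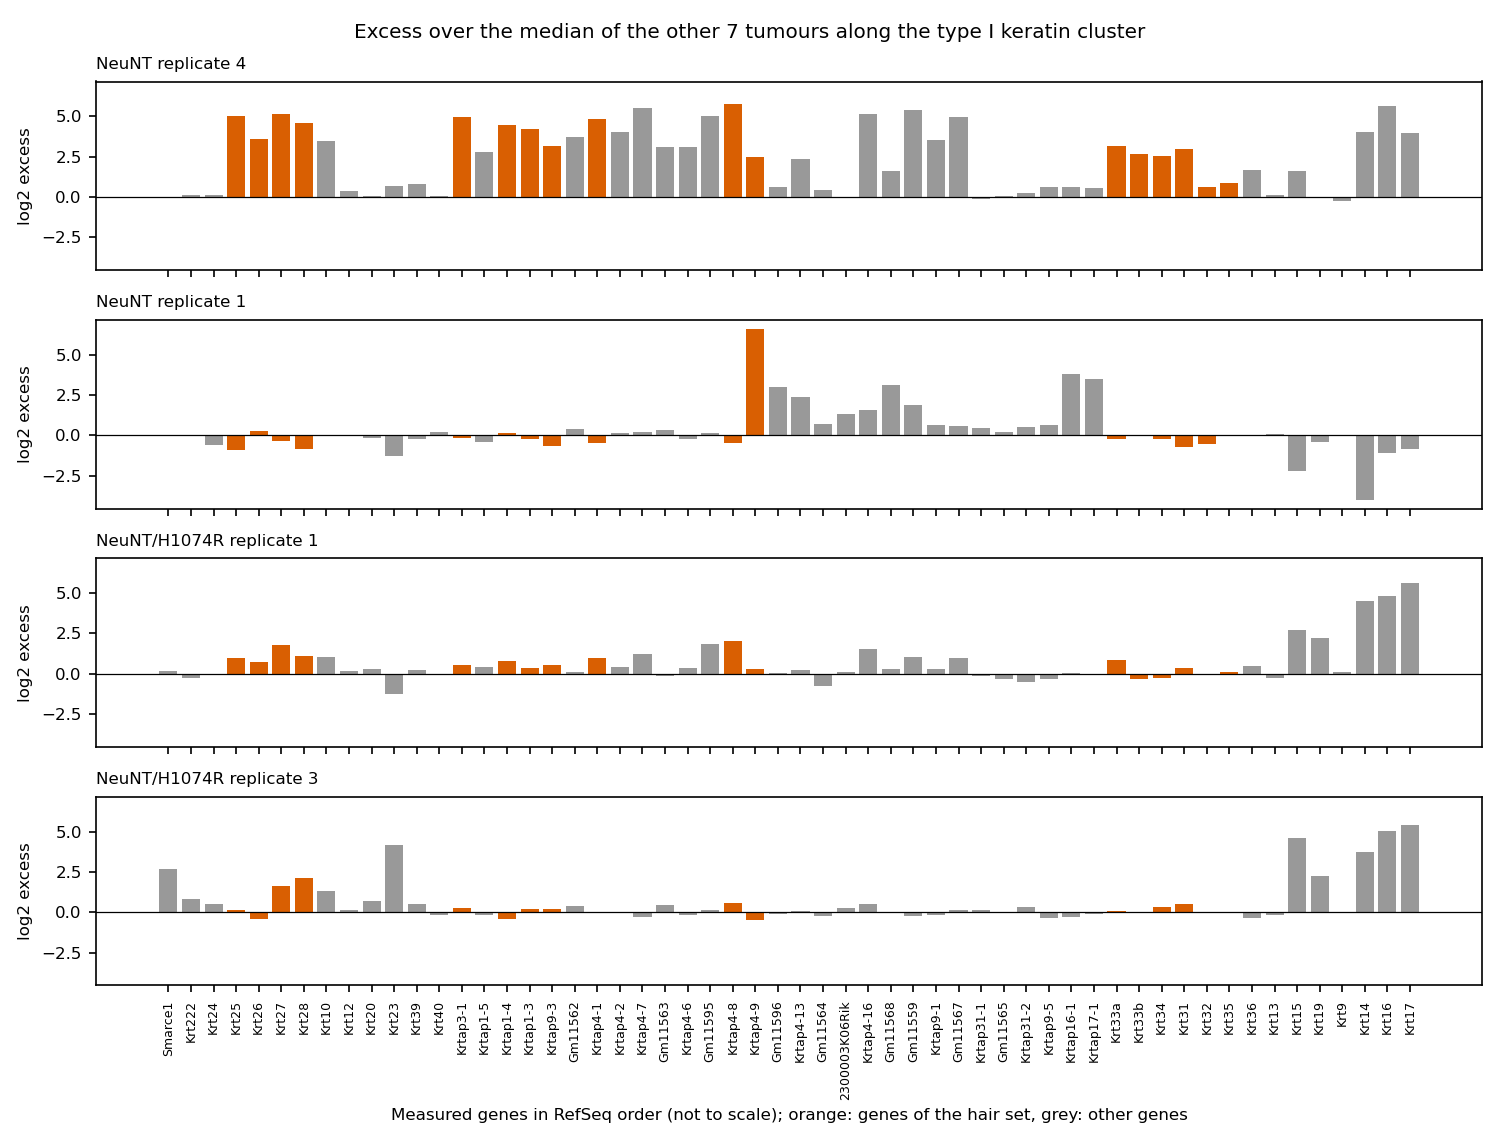
Bars give the log2 excess over the median of the other 7 tumours for the measured genes of the type I keratin cluster in RefSeq order, not to scale, for 4 tumours, with genes of the hair list in orange. NeuNT replicate 4 is raised from Krtap3-1 to Krtap4-8 in 13 of 13 genes, and NeuNT replicate 1 from Krtap4-9 to Krtap17-1, where Krtap4-9 reaches 6.62.

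The other shaft proteins followed the keratins. Padi3 is the deiminase that modifies trichohyalin and S100a3. The Padi3 values were 5.21, 5.78, 5.13 and 8.33 in the NeuNT tumours and 6.27, 5.25, 6.90 and 5.26 in the NeuNT/H1074R tumours. NeuNT replicate 4 was 8.41-fold above the median of the others, with NeuNT/H1074R replicates 3 and 1 next. S100a3 is a cysteine-rich calcium-binding protein of the hair cuticle. For S100a3 the NeuNT tumours gave 5.20, 5.02, 5.89 and 8.22 and the NeuNT/H1074R tumours 6.27, 4.96, 6.10 and 5.20. The same 3 tumours were the highest, and the excess in NeuNT replicate 4 was 8.12-fold. Desmoglein 4 (Dsg4) is the desmosomal cadherin of the hair shaft. Dsg4 read 4.26, 3.88, 4.29 and 6.21 in NeuNT replicates 1 to 4 and 4.56, 4.37, 3.86 and 3.89 in NeuNT/H1074R replicates 1 to 4. Its excess in NeuNT replicate 4 was 3.86-fold, and the other 7 tumours lay between 3.86 and 4.56.

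Of the 4 transcription factors, Dlx3 had the only excess above 1 in NeuNT replicate 4. Dlx3 is a homeobox factor needed for the hair shaft and inner root sheath, and acts also in the differentiating epidermis. The Dlx3 values were 6.16, 6.08, 6.59 and 9.46 in the NeuNT tumours and 7.09, 5.84, 7.74 and 5.78 in the NeuNT/H1074R tumours. The excess in NeuNT replicate 4 was 9.86-fold, with NeuNT/H1074R replicates 3 and 1 next, the order seen for Padi3. Hoxc13 is the homeobox factor that binds and activates hair keratin promoters. For Hoxc13 the NeuNT tumours gave 4.70, 5.28, 4.85 and 5.55 and the NeuNT/H1074R tumours 4.96, 4.77, 4.75 and 4.97. NeuNT replicate 4 was highest, but by 0.27 over NeuNT replicate 2. Foxn1, the factor lost in nude mice, is needed for the shaft to form. Foxn1 read 4.03, 4.39, 4.55 and 5.39 in NeuNT replicates 1 to 4 and 4.71, 4.08, 4.56 and 4.66 in NeuNT/H1074R replicates 1 to 4. Its excess in NeuNT replicate 4 was 0.84. Msx2 maintains shaft differentiation upstream of Foxn1. The Msx2 values were 5.05, 7.04, 4.03 and 5.59 in the NeuNT tumours and 4.53, 5.12, 4.91 and 4.88 in the NeuNT/H1074R tumours. NeuNT replicate 2 was highest with an excess of 2.13, while NeuNT replicate 4 stood at 0.67. The mean of the 4 factors was 6.50 in NeuNT replicate 4, 0.80 (1.74-fold) above the next tumour.

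The genotypes were compared in 1 limma fit over the 16635 genes left after the 25% with the lowest means, those at or under 4.06, were set aside. Of the 33 genes 32 were tested, and Krt26, with a mean of 3.81, was not. The mean of another 5 over the 7 tumours other than NeuNT replicate 4 was at or under that line, so they passed through that tumour. At an adjusted p under 0.05 the fit called 0 of the 32 and 0 of all genes (0%), and at an unadjusted p under 0.05 it called 0 of the 32 and 635 of all genes (3.82%). The genotypes' ranges overlapped for every one of the 33, against 2.94% of all genes whose ranges did not. Every one of the 33 had a lower mean in NeuNT/H1074R. The median difference was -0.49, while over all tested genes it was -0.0027 and 49.5% were higher in NeuNT/H1074R. Without NeuNT replicate 4 the median turned to 0.26, and 26 of 33 genes were higher in NeuNT/H1074R. The median and share over all genes were not taken without that tumour.

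By group the median difference between genotypes went from -0.62 to 0.58 for the sheath genes when that tumour was left out, from -0.29 to 0.23 for the shaft keratins, and from -0.93 to 0.31 for the keratin-associated genes. For the other shaft proteins it went from -0.45 to 0.26 and for the transcription factors from -0.35 to 0.047. The sheath gene mean was 5.36 ± 2.33 (SD, n = 4) in NeuNT and 4.58 ± 0.78 (SD, n = 4) in NeuNT/H1074R. The shaft keratin mean was 5.61 ± 1.05 and 5.30 ± 0.11, and the keratin-associated mean 5.27 ± 2.04 and 4.21 ± 0.40, on the same terms. The smallest unadjusted p in the limma fit belonged to Krtap4-9, with a difference of -2.72 ± 1.26 (SE) and an adjusted p of 0.978. Without NeuNT replicate 1 that difference was -1.39. Krt71 followed at -2.0 ± 1.18 (SE), and at -0.77 without NeuNT replicate 4. Hoxc13, Krt34 and Krt75 came next at -0.23, -0.68 and -0.62, all with an adjusted p of 0.978 in limma. Without NeuNT replicate 4 those were -0.082, -0.051 and -0.13.

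**Figure D4:**
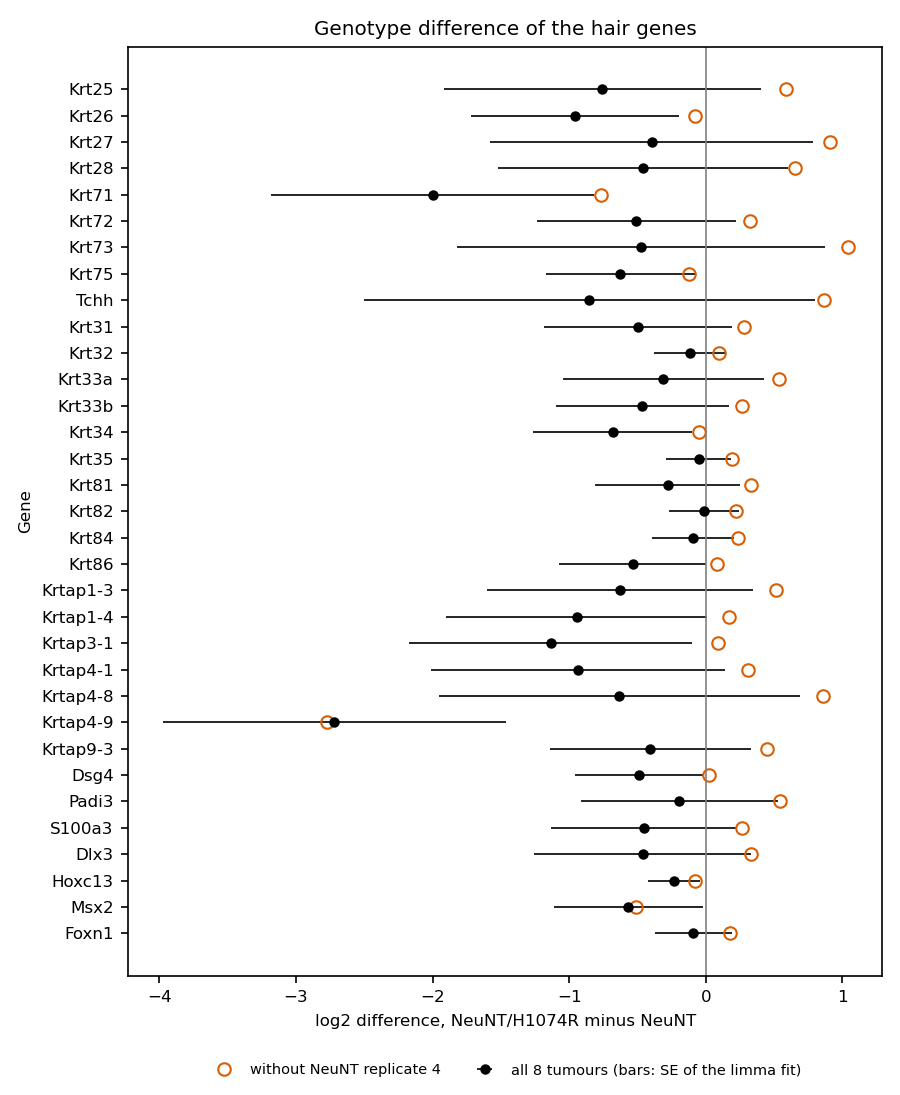
Filled points give the log2 difference, NeuNT/H1074R minus NeuNT, for each of the 33 genes over all 8 tumours, with bars of 1 SE from the limma fit; open circles give the difference without NeuNT replicate 4. All 33 filled points lie below 0, and 26 of the open circles lie above it.

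Other genes moved with the hair genes in NeuNT replicate 4. Of 7 further hair keratins, 5 were highest there (12.8% of all genes), with a median excess of 1.36, and Krt87 read 7.01 against 3.11 to 4.24. Krt80 read 9.29 there with NeuNT replicate 3 next at 7.93, Krt36 read 6.29 against 3.82 to 5.07, and Krt83 read 6.94 against 5.18 to 5.82. Of 15 other measured hair differentiation genes, 10 had an excess of 1 or more (3.03% of all genes), with a median of 1.58. The gene of widest range was Cdsn, a corneodesmosome protein, at 10.6 in NeuNT replicate 4 and 7.83 in NeuNT/H1074R replicate 3. Gsdma, a gasdermin of skin, read 9.24 and 8.35 in the same tumours and 7.06 in NeuNT/H1074R replicate 1. Tchhl1, a relative of trichohyalin, read 8.85 against 3.70 to 5.85, and Tgm3, the transglutaminase that cross-links it, read 8.68 against 4.14 to 5.23. Genes of hair regulation and signalling had a median excess of 0.29 over 21 genes, with 4 at 1 or more (3.03% of all genes). Lef1, which drives hair keratin genes downstream of Wnt, was highest in NeuNT replicate 3 at 8.88 and stood at 6.24 in NeuNT replicate 4. Cdh3, the P-cadherin gene, was highest in NeuNT replicate 2 at 9.0, with 8.42 in NeuNT replicate 4. Bmp4, a signalling ligand, read 7.69 in NeuNT replicate 4 and 7.02 in NeuNT/H1074R replicate 4, and Ovol1, an epidermal zinc finger factor, read 8.14 against 5.33 to 6.92.

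Epidermal genes were high in the same tumour. Of 22 cornified envelope genes, 21 were highest in NeuNT replicate 4 (12.8% of all genes). An excess of 1 or more was found for 18 (3.03% of all genes), with a median of 3.48. Their mean was 8.23 there and 4.35 to 5.71 elsewhere. Sprr1a, an envelope precursor, had the widest range, at 12.54 in NeuNT replicate 4, 10.95 in NeuNT/H1074R replicate 1 and 9.58 in NeuNT replicate 2. Cnfn, a cornified envelope protein gene, read 12.68 in NeuNT replicate 4 and 10.58 in NeuNT/H1074R replicate 1. Krtdap, a keratinocyte differentiation gene, read 11.51 against 4.09 to 6.76, and Sprr1b read 11.08 against 4.29 to 5.95. The median excess of Krt6a, Krt6b, Krt16 and Krt17, keratins of the outer root sheath and of activated epidermis, was 6.21 in NeuNT replicate 4, 4.89 in NeuNT/H1074R replicate 1 and 4.82 in NeuNT/H1074R replicate 3. Krt6a, Krt6b and Krt16 were highest in NeuNT replicate 4, Krt16 at 10.48 against 9.66 and 9.85 in the other 2. Krt17 was also raised in NeuNT replicate 4, at 10.77 with an excess of 3.96, but stood higher in the other 2, at 12.45 and 12.19. For the 31 hair genes highest in NeuNT replicate 4, NeuNT/H1074R replicate 1 most often came next, for 17. NeuNT/H1074R replicate 3 did so for 6, where it was second for 13% of all genes. Among the 10 shaft keratins NeuNT/H1074R replicate 4 was most often second, for 4, and its median excess for the Krt6a, Krt6b, Krt16 and Krt17 list was -1.33. The basal markers Krt14, Krt15 and Trp63 were raised in NeuNT replicates 4 and 2, with median excesses of 2.33 and 2.34. In NeuNT/H1074R replicates 1 and 3 these were 2.71 and 3.74. The part of these epidermal and basal markers in the hair gene values was not tested.

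Markers of other cells of skin and follicle had no such excess. For 7 melanocyte genes the means ran from 4.10 to 4.31 over the 8 tumours and for 8 sebaceous gland genes from 4.06 to 4.39. In NeuNT replicate 4, 0 of either list had an excess of 1 or more. These means lay near 4.06, the line of the dimmest 25% of genes. In all 8 tumours 1 melanocyte and 3 sebaceous genes were at or under it, so their lack of excess says little about these cells. The melanocyte genes of widest range, Mlana, Pmel, Slc45a2 and Oca2, spanned 0.56 to 0.96 between tumours, and the sebaceous genes Scd3, Mc5r, Awat2 and Elovl3 spanned 0.98 to 2.15. The median excess in NeuNT replicate 4 was -0.045 for 7 dermal papilla genes, with Sostdc1 the exception at 2.13, and -0.14 for 6 follicle stem cell genes, with Lgr6 the exception at 1.26. The other dermal papilla and stem cell genes of widest range, Rspo3, Prom1, Crabp1, Tcf7l1, Lgr5 and Cd34, had excesses of -0.82 to -0.045 there. For 9 luminal genes the median was 0.0033, with Csn2 and Wap, both milk protein genes, at 1 or more. Krt19 and Krt7, luminal keratins, stood at 9.26 and 9.13 in NeuNT replicate 4, within the other tumours' ranges. The luminal keratins Krt8 and Krt18 were lowest in that tumour. Krt8 read 9.78 against 10.02 to 10.89, and Krt18 read 10.36 against 10.74 to 11.36. In each of these lists limma called 0 genes between genotypes at an adjusted p under 0.05.

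**Figure D5:**
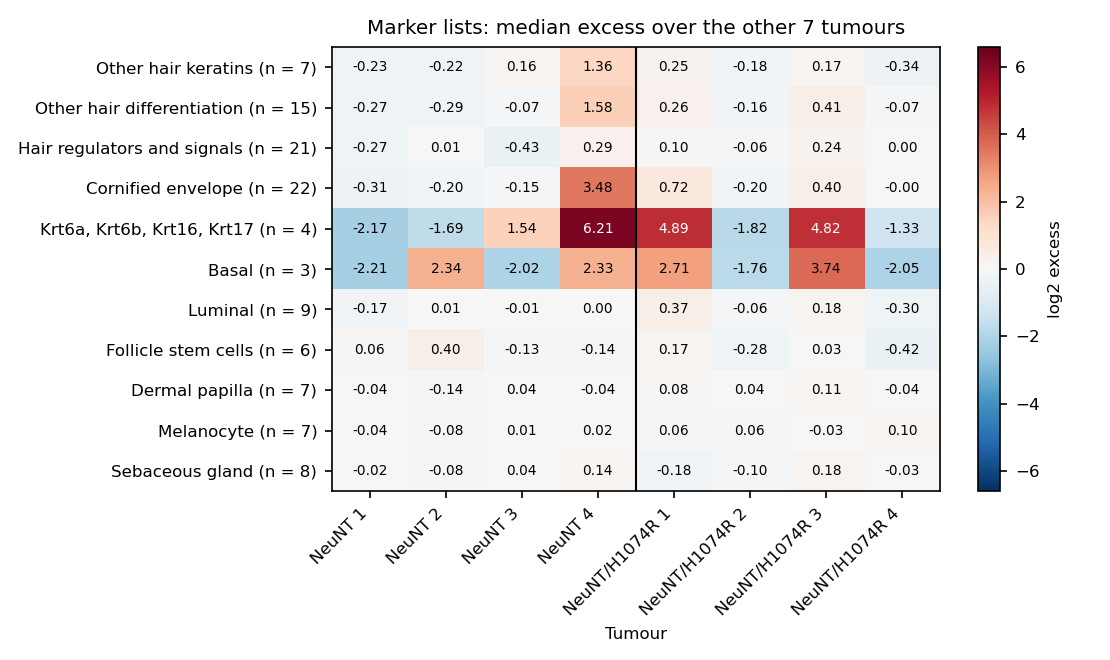
Cells give the median log2 excess of each gene list in each tumour over the median of the other 7, with n the number of measured genes. Cornified envelope genes stand at 3.48 and the Krt6a, Krt6b, Krt16 and Krt17 list at 6.21 in NeuNT replicate 4, while melanocyte, sebaceous gland, dermal papilla and luminal lists lie near 0 there.

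Genes outside every list were ranked by the lead of NeuNT replicate 4 over the next tumour. Names with Gm, Rik, LOC, Mir, Snor, Olfr or Vmn were left out of the ranking. The 15 with the largest lead among the rest were Psca, Sprr2h, Krtap13-1, Stfa3, Defb14, Lce3e, Csta3, Krtap4-7, Lce3f, Lce3d, Sprr2e, Defb3, Lce3c, Sprr2g and Cpa4. The names left out included Gm11567, inside the chromosome 11 cluster, which read 8.22 against 2.64 to 4.24. Psca, a surface antigen of stratified and glandular epithelia, read 12.15 against 4.68 to 6.45, a lead of 51.9-fold. Of the 15, Krtap13-1 and Krtap4-7 encode keratin-associated proteins, and the Lce3 and Sprr2 genes encode cornified envelope precursors. Krtap4-7, inside the chromosome 11 cluster, read 8.12 against 2.19 to 3.82.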

How the data were processed

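Total RNA of 8 tumours was measured on 1 array each. The authors deposited 1 table of log2 values; the submitters' processing notes name Affymetrix Expression Console and Transcriptome Analysis Console, and their versions, like the background correction and normalization, are not stated in the sources used here. That the values are log2 was read from their range, 0.887 to 13.6, and the arrays were used without further scaling. Of 41345 probes, the platform annotation gave 23521 exactly 1 gene symbol, 1814 several and 16010 none. The probe with the highest mean stood for each of 22180 genes. Arrays carry no read depth, and their number limits the precision.

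Genotypes were compared with limma 3.58.1 in R 4.3.3 (lmFit, eBayes with a trend), without a block, with Benjamini-Hochberg adjustment over 16635 genes; the script was tested on simulated data. The smallest p that an exact permutation test of 4 tumours against 4 allows is 0.0286. The alternatives changed the dim filter, the probe rule, the scaling, the variance trend and the weights of the arrays, and left out each tumour. Genes were named by these rules: all 4 transcription factors, Dsg4, Padi3 and S100a3, the 4 genes of widest range in each other group, up to 4 of widest range in each marker list, the 5 smallest p-values and the 15 outside genes with the largest lead. The outside genes were ranked without names holding Gm, Rik, LOC, Mir, Snor, Olfr or Vmn. Genes given only by value and range complete the groups. Krtap16-1, Krtap17-1, Krtap4-13, Krtap4-16, Gm11568, Gm11559, Gm11567, Krt8, Krt18, Krt23, Smarce1, Gast, Hap1, Jup and P3h4 were chosen after their values were seen. The members, gene lists and rules were chosen with earlier results of these data known. Promoters and gene order are from RefSeq (GRCm38.p6).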

Additional observations from a re-analysis of the deposited data

Results flagged for a closer look

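Within each genotype, the gap between the most extreme tumour and its nearest neighbour, divided by the range of the 4 tumours, was compared with Dixon's critical value of 0.829. Of 78 groups of values, 24 were above it. Chance takes about 1 in 20 groups above it, but the hair genes were chosen after they had been seen to be high in single tumours and are not independent of each other, so neither the count nor the ratios below are a test: they only locate the tumours described above. NeuNT replicate 4 was the high tumour in 20 of the 24. For group means the ratio was 0.891 for the sheath genes, 0.979 for the shaft keratins, 0.920 for Dsg4, Padi3 and S100a3, and 0.969 for all 33 genes. For sheath genes it was 0.849 for Krt25, 0.878 for Krt26, 0.938 for Krt27, 0.945 for Krt72 and 0.965 for Krt73. For shaft keratins it was 0.901 for Krt33a, 0.829 for Krt33b, 0.901 for Krt81 and 0.943 for Krt84. Among keratin-associated genes the ratio was 0.889 for Krtap1-3, 0.955 for Krtap1-4, 0.963 for Krtap3-1, 0.913 for Krtap4-1, 0.922 for Krtap4-8 and 0.882 for Krtap9-3. Dlx3, at 0.847, was the transcription factor above it.

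NeuNT/H1074R replicate 1 was the high tumour of its genotype for Krt73 (0.859), Tchh (0.892) and Krtap4-1 (0.851). NeuNT/H1074R replicate 2 was the low tumour of its genotype for Krt32 (0.961). Krtap4-9, highest in NeuNT replicate 1, was not above it.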

How the results depend on the processing

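No paired analysis was possible because the labels give no tumour number or mouse that both genotypes share. Limma called 0 genes between genotypes at an adjusted p under 0.05 in each of the 15 alternative fits; the smallest adjusted p lay between 0.374 and 1.0, and between 358 and 936 genes had an unadjusted p under 0.05. The direction of the members' median difference between genotypes rested on 1 tumour. Leaving out each tumour in turn gave -0.80 (without NeuNT replicate 2) to 0.26 (without NeuNT replicate 4). It also took the median to -1.02 to 0.58 for the sheath genes, -0.58 to 0.23 for the shaft keratins, -1.31 to 0.31 for the keratin-associated genes, -0.75 to 0.26 for the other shaft proteins and -0.53 to 0.047 for the transcription factors. Krtap4-9 ranged from -3.79 to -1.39, Krt71 from -2.81 to -0.77, Hoxc13 from -0.36 to -0.082, Krt34 from -0.98 to -0.051 and Krt75 from -0.95 to -0.13. With the lower 50% of genes left out, 1 keratin-associated gene, Krtap4-9, remained, and that group's median became -2.72. The lead of NeuNT replicate 4 over the next tumour kept its size under quantile normalization, at 3.17 for the sheath genes and 1.79 for the shaft keratins, and under centring, at 3.16 and 1.77. With values under 4.06 raised to that line, a choice made after seeing the data, the lead was 3.17 and 1.79, and 3.0 in place of 3.47 for the keratin-associated genes. Values near 4.06 and under lie in the dimmest 25% of genes, and 4 tumours per genotype limit what the fit can call.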
